A study of Mus musculus with 39 samples.

Results

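The comparison of effects asked which genes of the islet transcriptome the Pdx1-creLate transgene and late pregnancy changed alike, and which only 1 of them changed. Every gene got a transgene effect (Pdx1-creLate minus control littermates), a late-pregnancy effect (pregnancy day 18.5 minus non-pregnant) and the difference of the effects (transgene minus pregnancy), all on the log2 scale. It used 16 of the 39 Affymetrix Mouse Gene 1.0 ST arrays of the series, 4 in each of 4 groups. The 4 Pdx1-creLate arrays and the 4 arrays of their control littermates, which are wild type, held islet RNA of non-pregnant mice of backcross generation N8. The 4 day 18.5 arrays and the 4 non-pregnant arrays held islet RNA of C57bl6/J wild-type females. Each array is labelled as a biological replicate, and whether an array pooled several mice is not stated in the labels used here.

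The Pdx1-creLate line expresses Cre recombinase in beta cells under a Pdx1 promoter fragment, and the construct is known to hold a minigene of human growth hormone behind the Cre sequence. Human growth hormone, placental lactogen and prolactin all activate the prolactin receptor of beta cells, which signals through JAK2 and STAT5. In pregnancy this signal is known to switch on serotonin synthesis, to drive beta cell division and to raise insulin output. The human minigene itself and the prolactin receptor gene Prlr are not analysed here.

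The groups also differed in ways other than transgene and pregnancy. The labels used here give no sex for the littermates, but the log2 signal of the X-inactivation RNA Xist lay between 4.0 and 4.6 on the Pdx1-creLate arrays and between 3.8 and 5.0 on the control arrays. It lay between 9.8 and 10.1 at day 18.5 and between 10.2 and 10.5 in non-pregnant mice, and the Y-linked gene Uty ran the other way, from 7.6 to 8.4 on the littermates' arrays and from 3.1 to 3.3 on the pregnancy arrays. In the difference of the effects, transgene against pregnancy, backcross against C57bl6/J and this sex difference cannot be told apart. Islet preparations carry exocrine tissue, and the mean log2 signal of 20 acinar markers lay between 8.48 and 10.45 in Pdx1-creLate, 8.42 and 9.72 in controls, 8.54 and 9.87 at day 18.5 and 7.72 and 9.65 in non-pregnant mice. In bulk islets fewer cells of a type and less RNA per cell cannot be told apart.

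Some arrays stood apart from their group. Control replicate 4 was the highest control array in 64 of the 106 genes at least 2-fold higher in Pdx1-creLate whose highest control was a single array, against 5, 11 and 26 genes for replicates 1, 2 and 3. For described genes and lists whose calls rest on it, values without it are given as well. The spread of log2 values within an array (SD over all genes) was 1.85 to 1.91 at day 18.5 and 1.76 to 1.84 in non-pregnant mice, with no overlap, and was lowest in non-pregnant replicate 4. In Pdx1-creLate it was 1.84 to 1.89 and in controls 1.85 to 1.86. Its part in the pregnancy results was not tested apart from a fit with this spread as a covariate, which is quoted beside the counts that it moved.

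A gene was called where limma's adjusted p was under 0.05 among 19938 genes. The transgene effect was called in 1997 genes (10.0% of those tested), with 802 higher (4.02%) and 1195 lower (5.99%). Centring each array on its median changed this split to 982 higher and 720 lower, and quantile normalization gave 932 and 1134, so the balance between small rises and small falls depends on the scaling. The late-pregnancy effect was called in 1430 genes (7.17%), with 1158 higher (5.81%) and 272 lower (1.36%), which became 1655 and 138 with centring and 633 and 394 with quantile normalization. The median of all genes moved by no more than 0.05 in these scalings. With the array spread as a covariate only 189 genes were called for pregnancy, and leaving out 1 array at a time gave between 740 and 1650. The lowest counts came without day 18.5 replicates 1, 3 or 4 and without non-pregnant replicate 4.

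The difference of the effects was called in 556 genes (2.79%), in 162 of them (0.813%) with the transgene effect above the pregnancy effect and in 394 (1.98%) below it. With quantile normalization it was 195 and 232. The genes then fell into 4 classes. Shared genes were called in both comparisons in the same direction, and numbered 496 (2.49% of all genes), 397 higher and 99 lower. In 422 of them (2.12%) the difference was not called, and in 74 (0.371%) it was. Transgene-only genes, which were called for the transgene and for the difference but not for pregnancy, numbered 324 (1.63%). Pregnancy-only genes, called for pregnancy and for the difference but not for the transgene, numbered 107 (0.537%). Opposite genes, called in both comparisons in opposite directions, numbered 9 (0.0451%). A further 1168 genes (5.86%) were called for the transgene and 818 (4.1%) for pregnancy without a called difference, so they belong to no class. With the array spread as a covariate the classes held 166 shared, 105 transgene-only, 4 pregnancy-only and 1 opposite genes.

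Of the genes called for the transgene, 24.8% were called the same way in pregnancy, and of those called for pregnancy, 34.7% were called the same way for the transgene. Of the 802 genes higher in Pdx1-creLate, 49.5% were also higher at day 18.5, whereas of the 1195 lower genes 8.28% were also lower. From the side of pregnancy the shares by direction were close, at 34.3% of the 1158 higher and 36.4% of the 272 lower genes, and all 4 shares rest on splits into rises and falls that depend on the scaling. Of the 134 genes at least 2-fold higher in Pdx1-creLate (0.672% of all genes), 99 were called higher at day 18.5, and of the 65 at least 2-fold lower (0.326%), 26 were called lower. Conversely, 75 of the 79 genes at least 2-fold higher at day 18.5 (0.396%) were called higher in Pdx1-creLate, and all 4 at least 2-fold lower (0.0201%) were called lower. The comparisons have no array in common. Across all 19938 genes the effects had Pearson's r = 0.485 and Spearman's rho = 0.189, a description across genes, which are not independent replicates.

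**Figure D1:**
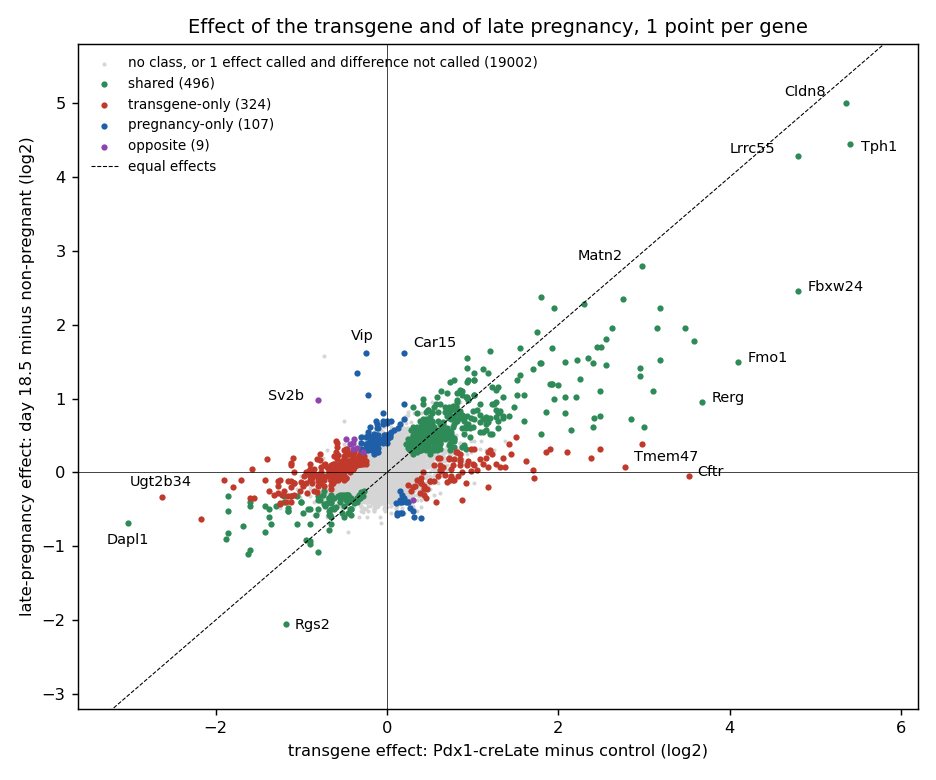
Transgene effect (x axis, Pdx1-creLate minus control, log2) against late-pregnancy effect (y axis, day 18.5 minus non-pregnant, log2) for 19938 genes, coloured by class, with the dashed line at equal effects. Of the 496 shared genes, the 397 rises lie at the upper right and the 99 falls at the lower left, the 324 transgene-only genes lie along the horizontal axis, and the 107 pregnancy-only genes near the vertical axis.

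Among shared genes without a called difference, Tph1, Cldn8 and Lrrc55 had the largest effects. The log2 signal of Tph1, the tryptophan hydroxylase that limits serotonin synthesis outside the nervous system (GRCm38 chr7:46644641-46672537), was 10.3, 10.7, 10.8 and 10.8 in Pdx1-creLate, against 4.6, 4.6, 4.5 and 7.3 in controls. The day 18.5 arrays stood at 8.9, 8.9, 8.7 and 9.1, against 4.0, 4.3, 4.6 and 4.9 in non-pregnant mice. Neither pair of groups overlapped, and control replicate 4 lay far above the other controls. The transgene effect was 5.40 ± 0.40 (SE), 42.2-fold, and the pregnancy effect 4.45 ± 0.40, 21.9-fold. The difference, 0.95 with a 95% confidence interval of -0.22 to 2.12, was not called (adjusted p = 0.371). Without control replicate 4 the transgene effect was 6.08, and the difference of 1.63 was called (adjusted p = 0.00016).

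Cldn8, a claudin of tight junctions (chr16:88560826-88563183), had a log2 signal of 11.3, 11.2, 11.1 and 11.4 in Pdx1-creLate, against 5.3, 5.1, 5.3 and 7.9 in controls. At day 18.5 it was 10.6, 10.5, 10.5 and 10.7, against 5.3, 5.6, 5.4 and 6.0 in non-pregnant mice. The groups were again apart in both comparisons, with effects of 5.35 ± 0.38 for the transgene and 5.0 ± 0.38 for pregnancy and a difference of 0.35 (95% interval -0.77 to 1.47, adjusted p = 0.767). Lrrc55, an accessory subunit of large-conductance potassium channels (chr2:85188067-85198750), had effects of 4.80 ± 0.26 and 4.28 ± 0.26 and a difference of 0.53 (adjusted p = 0.458). Both differences were called without control replicate 4, at 1.02 (adjusted p = 0.00246) for Cldn8 and 0.95 (adjusted p = 0.00371) for Lrrc55. For these genes and Tph1, whether the transgene effect exceeded the pregnancy effect thus turned on 1 array, while the call of each effect did not.

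The calls of Tph2, Matn2, Ehhadh and Ivd were the same with and without that array. Tph2, the second tryptophan hydroxylase, known as the form of the nervous system, had a log2 signal of 7.8, 7.7, 7.4 and 7.6 in Pdx1-creLate, against 5.1, 4.6, 4.7 and 5.1 in controls. In late pregnancy it was 7.3, 7.3, 7.2 and 7.5, against 5.1, 4.8, 5.1 and 4.9 in non-pregnant mice. It rose 6.73-fold with the transgene and 5.10-fold in pregnancy, with no overlap of groups in either comparison and a difference of 0.40 (interval 0.05 to 0.75, adjusted p = 0.197). Matn2, an extracellular matrix protein, rose by 2.98 ± 0.14 and 2.80 ± 0.14. Ehhadh, a bifunctional enzyme of fatty-acid oxidation in peroxisomes, rose by 2.3 ± 0.12 and 2.28 ± 0.12, with a difference of 0.02 (interval -0.32 to 0.37). Ivd, the isovaleryl-CoA dehydrogenase of leucine breakdown, rose by 1.95 ± 0.11 and 2.22 ± 0.11, with a difference of -0.28 (interval -0.61 to 0.06). A missed threshold does not show equal effects, and for Ehhadh differences of up to 0.37 lie inside the interval. Igfbp5, which binds insulin-like growth factors, rose by 2.62 ± 0.13 and 1.95 ± 0.13, and its difference of 0.68 missed the threshold (adjusted p = 0.0521) and passed it without control replicate 4 (adjusted p = 0.00954).

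**Figure D2:**
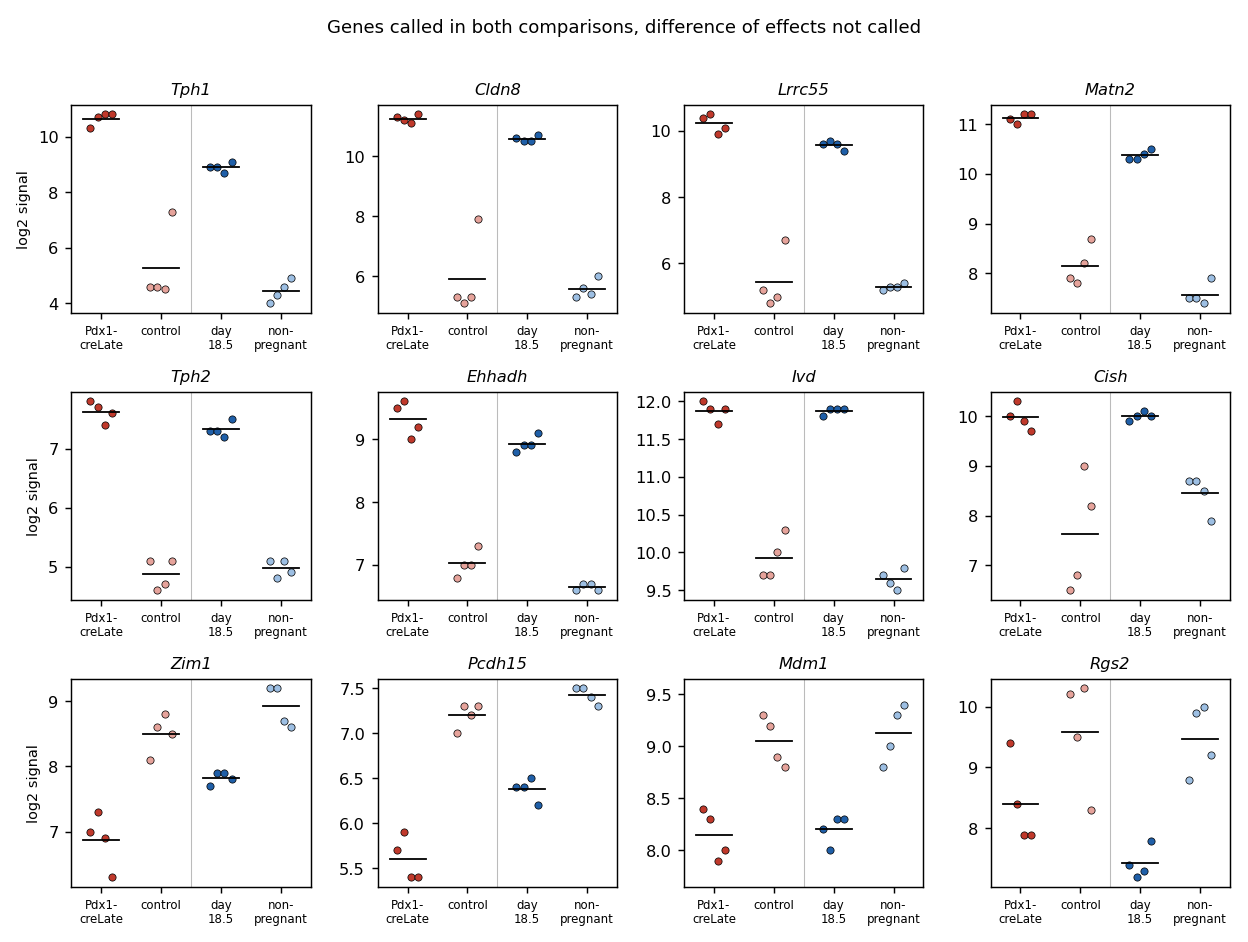
Log2 signal (y axis, own scale in each panel, not from 0) on each of 4 arrays per group, with the group mean as a bar, for 12 shared genes whose difference was not called. Rises are in the upper 8 panels and falls in the lowest 4, and control replicate 4 lies at 7.3 for Tph1 and 7.9 for Cldn8, above the other control arrays.

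Of the 99 shared falls, 26 were at least 2-fold with the transgene and 4 in pregnancy. Zim1, an imprinted zinc-finger gene, had a log2 signal of 7.0, 7.3, 6.9 and 6.3 in Pdx1-creLate, against 8.1, 8.6, 8.8 and 8.5 in controls, and of 7.7, 7.9, 7.9 and 7.8 at day 18.5, against 9.2, 9.2, 8.7 and 8.6 in non-pregnant mice. No groups overlapped, and the falls were -1.62 ± 0.18 and -1.10 ± 0.18. Pcdh15, a protocadherin, fell by 1.60 and 1.05, and Nnat, an imprinted gene that helps insulin processing in beta cells, by 0.95 and 0.92 on the log2 scale. Mdm1, a microtubule-binding protein of centrioles, fell by 0.90 and 0.93. Rgs2, a regulator of G-protein signalling, had the largest fall of the class in pregnancy, -2.05 ± 0.36, but its Pdx1-creLate arrays at 9.4, 8.4, 7.9 and 7.9 overlapped the controls at 10.2, 9.5, 10.3 and 8.3. The overlap came from control replicate 4, at 8.3. The transgene effect of Rgs2, -1.18, was called with an adjusted p of 0.0431 and not when each effect was fitted on its own 8 arrays (adjusted p = 0.0963). Without control replicate 4 it was -1.60 (adjusted p = 0.00166).

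Feedback genes of cytokine signalling were shared as well. Cish, a feedback inhibitor of cytokine receptors, had a log2 signal of 10.0, 10.3, 9.9 and 9.7 in Pdx1-creLate, against 6.5, 6.8, 9.0 and 8.2 in controls. The day 18.5 arrays were close together at 9.9, 10.0, 10.1 and 10.0, against 8.7, 8.7, 8.5 and 7.9 in non-pregnant mice. The groups did not overlap, but the control arrays spread from 6.5 to 9.0, and the effects were 2.35 ± 0.35 and 1.55 ± 0.35 with a difference of 0.80 (interval -0.22 to 1.82, adjusted p = 0.393). The pregnancy effect of Cish was not called with the array spread as a covariate (1.01, adjusted p = 0.57). Socs2, a feedback inhibitor of growth hormone signalling, had 10.6, 10.3, 10.0 and 10.3 in Pdx1-creLate, against 7.5, 7.9, 8.3 and 8.5 in controls, and 9.7, 9.7, 9.8 and 9.9 at day 18.5, against 8.6, 8.5, 8.6 and 8.3 in non-pregnant mice. Its effects of 2.25 ± 0.16 and 1.27 ± 0.16 differed by 0.98 (adjusted p = 0.0199), which was lost when a gene's probe sets were averaged (adjusted p = 0.0792). Tnfrsf11b, the decoy receptor osteoprotegerin, rose 8.88-fold with the transgene and 3.86-fold in pregnancy, with a difference of 1.2 ± 0.24 (adjusted p = 0.00737).

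STAT5 binds the palindrome TTCNNNGAA, so promoters of the 15 named shared genes without a called difference (10 rises and 5 falls, taken by size), of Cish and of Socs2 were searched for these letters. The palindrome reads the same on both strands, and a promoter is 250 bases before to 50 bases after the RefSeq start of the gene (GRCm38.p6). Of 17 genes looked up, 14 had a promoter in the table, and 2 of these held the letters: Cish with 2 copies (chr9:107296409-107296708, plus strand) and Ivd with 1 (chr2:118861744-118862043, plus strand). Both are shown 5′ to 3′ from the RefSeq sequence, with the palindrome in capitals.
Cish: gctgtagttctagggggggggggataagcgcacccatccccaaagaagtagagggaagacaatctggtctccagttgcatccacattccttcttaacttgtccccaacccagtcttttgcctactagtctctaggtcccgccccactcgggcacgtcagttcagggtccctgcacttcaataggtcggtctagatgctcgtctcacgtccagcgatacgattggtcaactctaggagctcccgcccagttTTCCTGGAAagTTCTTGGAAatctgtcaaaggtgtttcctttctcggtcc
Ivd: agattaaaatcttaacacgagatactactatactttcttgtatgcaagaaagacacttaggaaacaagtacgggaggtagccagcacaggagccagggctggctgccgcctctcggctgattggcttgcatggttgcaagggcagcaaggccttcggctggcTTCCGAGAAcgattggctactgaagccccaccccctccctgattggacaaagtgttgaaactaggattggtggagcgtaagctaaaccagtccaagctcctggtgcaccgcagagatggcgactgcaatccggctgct
In Cish the first bases of the 2 copies lie at 0 and 11 bases from the annotated start, and in Ivd the copy lies at -88. Over all 32851 promoters of the table the letters were found in 8.3%, and counted by gene in 9.55% of 27025 genes. The shares by class are also counted by gene, over genes with a promoter in the table. Among shared genes the letters were found in 42 of 314 that rose (13.4%) and 3 of 75 that fell (4.0%). They were found in 4 of 62 transgene-only rises (6.45%) and 2 of 72 pregnancy-only rises (2.78%). Of the 19938 genes tested, 15614 had a promoter in the table, and 1403 of these held the letters (8.99%). A match is a run of letters and shows no binding.

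In the list of lactogen and growth hormone signalling, 25 of 26 genes were measured. With the transgene 6 rose and 3 fell (median effect 0.0), and at day 18.5 6 rose and 0 fell (median 0.0), beside 4.02% and 5.81% of all genes called higher. Cish, Socs2, Tnfrsf11b, the growth factor carrier Igfals (0.95 and 0.98) and the growth regulator Myc (1.23 and 1.15) were shared. Ccnd1, cyclin D1, fell by 0.58 with the transgene and had an effect of 0.35 in pregnancy that was not called (adjusted p = 0.0611), a difference of -0.93 (adjusted p = 0.00177). Ghr, the growth hormone receptor, had effects of -0.18 and -0.07, called in neither comparison. Of 22 serotonin genes, 3 rose and 1 fell with the transgene, and 4 rose and 0 fell at day 18.5. The vesicular monoamine transporter Slc18a1 joined Tph1 and Tph2 in both (0.78 and 0.65). Ddc, which makes serotonin from its precursor, had effects of 0.02 and 0.27, with no called difference. Its pregnancy effect was called (adjusted p = 0.0468), but not in 10 of the fits that left out 1 array (adjusted p between 0.0507 and 0.165). Quantile normalization again lost this call as well (adjusted p = 0.286). The fall was in Qdpr, with a mean of 9.5 in Pdx1-creLate against 9.8 in controls, beside 5.99% of all genes called lower. Qdpr was the 1 member of the list with a called difference. Its fall was not called without control replicate 4 (adjusted p = 0.0578).

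In 74 shared genes the effects differed in size, 69 with the larger effect of the transgene and 5 of pregnancy. Rerg, a Ras-like growth inhibitor (chr6:137054825-137170496), had a log2 signal of 9.5, 9.6, 8.9 and 9.4 in Pdx1-creLate, against 5.6, 5.6, 5.4 and 6.1 in controls. Late-pregnancy arrays had 6.9, 6.2, 6.6 and 6.6, against 5.5, 5.9, 5.8 and 5.3 in non-pregnant mice. Each Pdx1-creLate array stood above every day 18.5 array, and the effects of 3.68 ± 0.17 and 0.95 ± 0.17 differed by 2.72 ± 0.24 (adjusted p = 5.69e-07). Fmo1, a flavin monooxygenase, had 10.3, 10.4, 10.0 and 10.3 in Pdx1-creLate, against 5.4, 6.1, 6.0 and 7.1 in controls, and 7.5, 7.4, 7.4 and 7.8 at day 18.5, against 6.0, 6.1, 6.0 and 6.0 in non-pregnant mice. It rose 17.1-fold with the transgene and 2.83-fold in pregnancy. The F-box genes Fbxw24 (4.80 and 2.45) and Fbxw15 (3.00 and 0.62) and the guanylate-binding protein Gbp8 (3.48 and 1.95) followed the same order, with differences of 2.35, 2.38 and 1.52. The Fbxw and Gbp families hold near-identical genes, so their probe sets may read more than 1 family member.

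The largest fall of this kind was in Dapl1, an early epithelial differentiation gene (chr2:59484653-59505020). Its log2 signal was 5.0, 5.0, 5.3 and 5.1 in Pdx1-creLate, against 8.1, 8.3, 8.1 and 8.0 in controls, and 7.1, 6.2, 6.7 and 6.7 at day 18.5, against 7.6, 7.6, 7.3 and 6.9 in non-pregnant mice. The littermate groups were far apart and the pregnancy groups overlapped. It fell 8.14-fold with the transgene and 1.60-fold in pregnancy, with a difference of -2.35 ± 0.22 (adjusted p = 1.17e-06). Tat, tyrosine aminotransferase, fell by 1.88 and 0.90. The 5 genes with the larger pregnancy effect had small differences. Derl3, of endoplasmic-reticulum-associated degradation, rose by 0.93 with the transgene and 1.55 in pregnancy, and its difference of -0.62 (adjusted p = 0.0483) was not called without control replicate 4 (adjusted p = 0.0681). Its mean level was nonetheless higher in Pdx1-creLate, 8.5, than at day 18.5, 8.15, from 7.58 in controls and 6.6 in non-pregnant mice. Hopx, a homeodomain-only protein, rose by 0.78 and 1.25, and Fads1, a fatty-acid desaturase, by 0.30 and 0.88. The difference of Hopx was not called without day 18.5 replicate 1 (adjusted p = 0.0646), 3 (0.05) or 4 (0.051) or non-pregnant replicate 4 (0.0522). The transgene effect of Fads1 was not called without Pdx1-creLate replicate 2 (adjusted p = 0.0664) or 4 (0.0519), or control replicate 1 (0.0544) or 2 (0.0513).

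**Figure D3:**
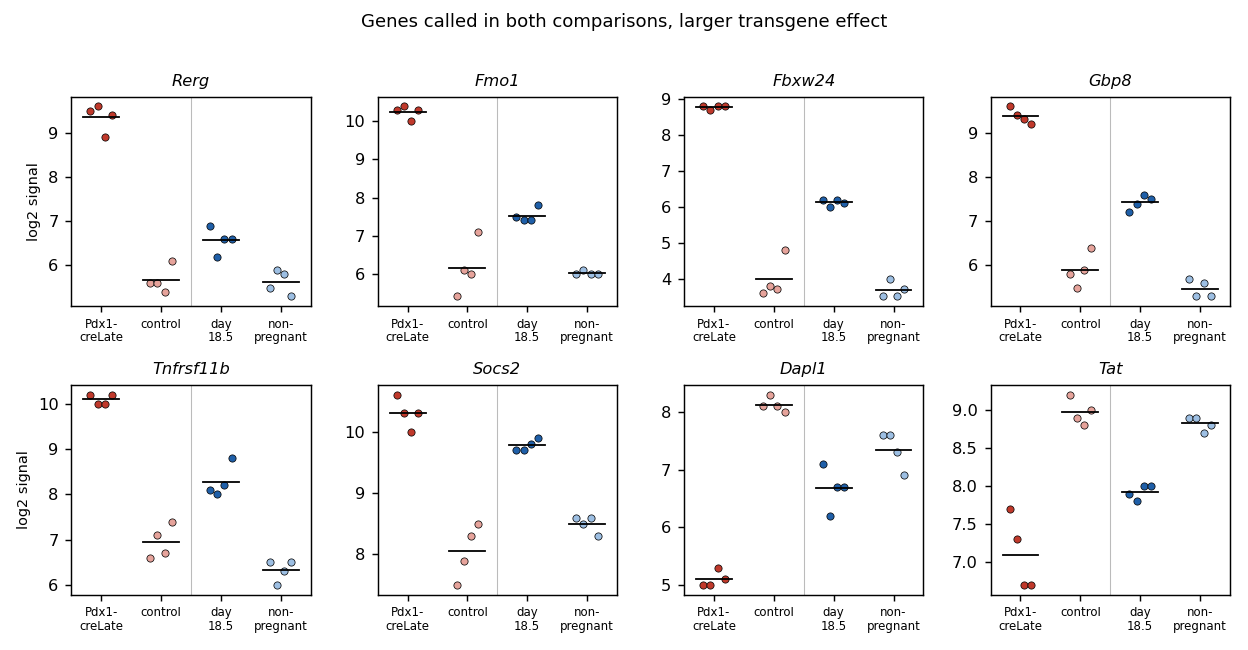
Log2 signal (y axis, own scale in each panel, not from 0) on each of 4 arrays per group, with the group mean as a bar, for 8 shared genes with the larger transgene effect. For Rerg and Fmo1 the Pdx1-creLate arrays lie above all day 18.5 arrays, and for Dapl1 below them.

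The 324 transgene-only genes comprised 84 rises and 240 falls. Cftr, the chloride channel of epithelia (chr6:18170687-18322770), had a log2 signal of 8.1, 7.9, 7.0 and 6.8 in Pdx1-creLate, against 3.8, 3.8, 4.2 and 3.9 in controls. The day 18.5 arrays had 3.6, 3.7, 3.8 and 4.0, against 4.0, 3.6, 4.0 and 3.7 in non-pregnant mice. All 12 arrays outside Pdx1-creLate lay between 3.6 and 4.2, and the effects of 3.52 ± 0.21 and -0.05 ± 0.21 differed by 3.58 ± 0.29 (adjusted p = 2.5e-07). Cftr is also a marker of duct cells. Of 12 duct markers measured, Cftr, Krt18 (0.48) and Epcam (0.43) rose with the transgene and Prom1 fell by 1.90 ± 0.13. Over all genes 4.02% rose and 5.99% fell. Krt18 and Epcam were called higher at day 18.5 too, with means of 9.88 and 9.28, against 9.02 and 8.9 in non-pregnant mice. The median transgene effect over the 12 was -0.03, and the part of duct cells in the Cftr result was not tested. The membrane protein Tmem47 rose by 2.78 ± 0.22, with an effect of 0.08 in pregnancy. Its 4 Pdx1-creLate arrays at 8.1, 7.8, 8.6 and 8.9 lay above control replicate 4 at 6.4 and the other controls at 5.2 to 5.4.

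Csf2rb, the common receptor subunit for interleukin-3, interleukin-5 and GM-CSF, had a log2 signal of 7.3, 8.1, 7.6 and 7.3 in Pdx1-creLate, against 5.1, 5.1, 5.0 and 5.6 in controls. At day 18.5 it was 5.5, 5.4, 5.5 and 5.6, against 5.5, 5.3, 5.2 and 5.2 in non-pregnant mice. It rose 5.19-fold in the littermates, with groups apart, against 1.15-fold in pregnancy, a difference of 2.17 ± 0.21 (adjusted p = 1.35e-06). Its near-identical neighbour on the mouse genome may be read by the same probes. Of 12 macrophage markers 1 rose with the transgene, Lyz2, and none of 10 T and B cell markers was called, beside 4.02% of all genes called higher. The part of immune cells in the Csf2rb result was not tested. Kcnj5, an inwardly rectifying potassium channel, rose by 2.10 ± 0.14 with an effect of 0.27 in pregnancy, and the guanylate-binding proteins Gbp4 and Gbp9 rose by 1.90 and 1.27 with effects of 0.32 and 0.12 in pregnancy. Gbp3 of the same family fell with the transgene, to a mean of 5.12 from 5.52 in controls. Of 22 genes of interferon response and antigen presentation 4 rose and 2 fell with the transgene, beside 4.02% and 5.99% of all genes.

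The falls among the transgene-only genes included genes of mature beta cells. Ucn3, the peptide urocortin 3 that marks mature beta cells, had a log2 signal of 10.0, 10.0, 10.2 and 10.2 in Pdx1-creLate, against 10.9, 11.1, 11.1 and 11 in controls. At day 18.5 it was 10.8, 10.6, 10.7 and 10.7, against 10.6, 10.8, 10.7 and 10.7 in non-pregnant mice. The pregnancy groups had the same mean, and the effects of -0.92 ± 0.08 and 0.00 ± 0.08 differed by -0.92 ± 0.11 (adjusted p = 4.34e-05). Kcnk16, the TALK-1 potassium channel of beta cells, fell by 1.08 with an effect of 0.00 in pregnancy, and Foxa2, a transcription factor of endoderm and islets, by 0.73 with an effect of -0.18. Ugt2b34, a glucuronosyltransferase, fell 6.17-fold, and its effect in pregnancy was -0.33 (adjusted p = 0.135).

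Of 19 measured beta-cell transcription factors, 8 fell and 1 rose with the transgene (median effect -0.28), and 3 fell and 1 rose at day 18.5 (median -0.02), beside medians of -0.025 and 0.0 over all genes. Over all genes 5.99% fell and 4.02% rose with the transgene, and 1.36% fell and 5.81% rose at day 18.5. Ovol2 was the rise in both (0.58 and 1.02), Mlxipl (-0.42 and -0.50) and St18 (-0.57 and -0.32) fell in both, and Nkx6-1 (-0.42 and -0.15), Nkx2-2 and Mafa (-0.38 and 0.22) fell with the transgene. The call of Mafa (adjusted p = 0.0446) was lost in 10 fits that each left out 1 array: Pdx1-creLate replicate 1, 2 or 3, control replicate 1, 3 or 4, or any 1 of the 4 day 18.5 arrays (adjusted p between 0.0502 and 0.133). The difference was called in 1 of the 19, Foxa2. The count of 8 falls ranged from 4, with arrays centred on their medians, to 11, with all 39 arrays. Of 26 genes of beta-cell maturity and secretion, 10 fell and 2 rose with the transgene (median -0.25), and 1 fell and 4 rose at day 18.5 (median 0.0). Falls with the transgene included the glucose transporter Slc2a2 (-0.57) and the zinc transporter Slc30a8 (-0.45, and -0.33 at day 18.5), while the granule protein Chgb rose in both (0.95 and 1.25). Ins2 and Pdx1 were called in neither comparison (-0.08 and 0.20 for Ins2, 0.05 and 0.28 for Pdx1). Markers of the other islet cells moved beside these falls: 3 of 5 pancreatic polypeptide cell markers, 2 of 6 alpha cell markers and 1 of 4 delta cell markers fell with the transgene, beside 5.99% of all genes, and their part in the beta-cell counts was not tested. Without control replicate 4 these counts were 2, 1 and 1, with Ppy (adjusted p = 0.0593) and Slc38a5 (adjusted p = 0.151) no longer called.

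**Figure D4:**
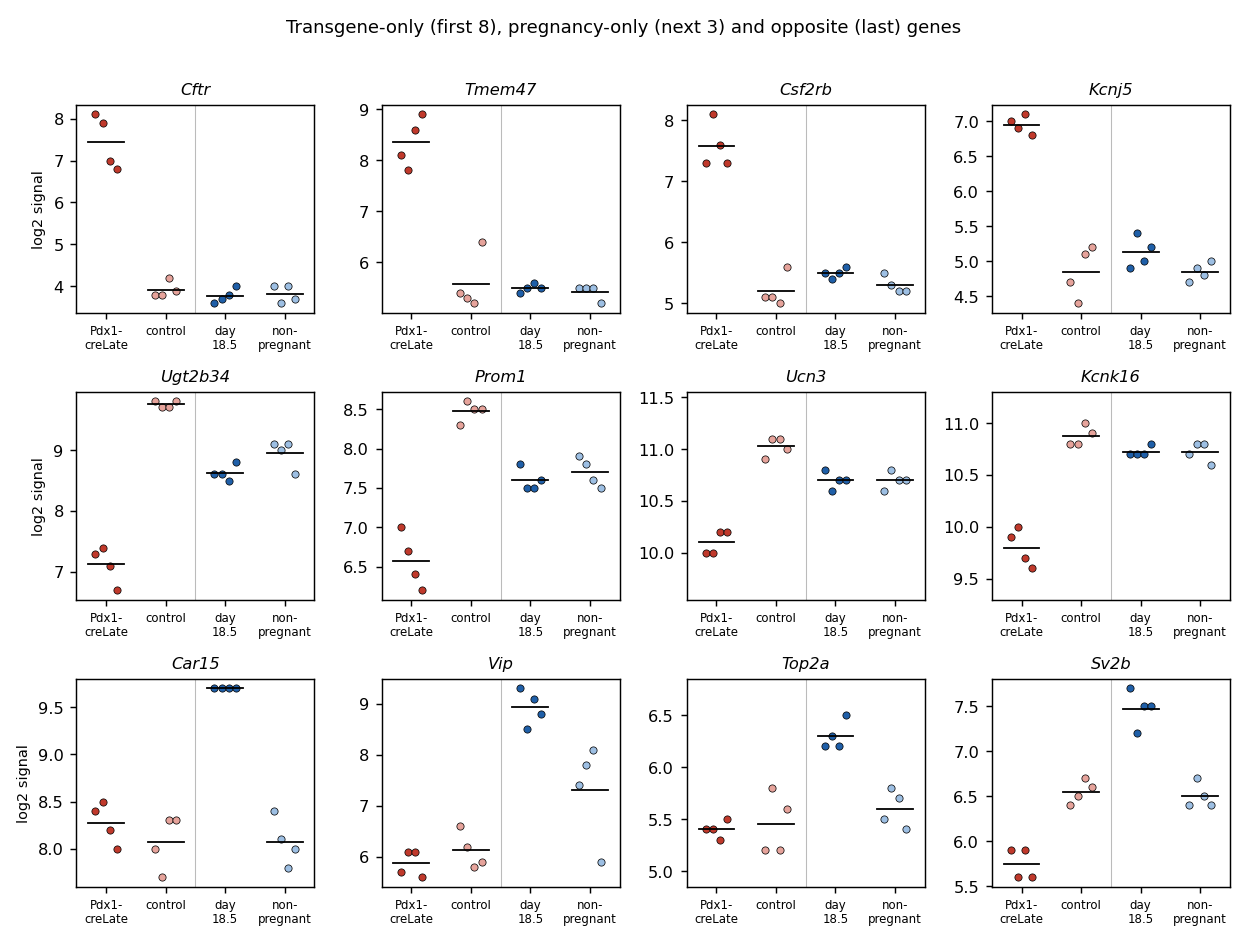
Log2 signal (y axis, own scale in each panel, not from 0) on each of 4 arrays per group, with the group mean as a bar, for 8 transgene-only genes, the pregnancy-only genes Car15, Vip and Top2a, and the opposite gene Sv2b. In the first 8 panels the Pdx1-creLate arrays stand apart from the other 12, and in the Car15 panel the day 18.5 arrays do, all at 9.7.

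The 107 pregnancy-only genes, 89 higher and 18 lower, varied with the processing. The class held 4 genes with the array spread as a covariate, 2 of them among the 107, and between 33 and 167 genes when 1 array was left out. Without day 18.5 replicate 4 it held 33 genes, 31 of them among the 107, and without non-pregnant replicate 4 it held 41, of which 37 were among the 107. In 24 of the 107 genes the control littermates had a higher mean level than the day 18.5 mice.

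Car15, a membrane-bound carbonic anhydrase (chr16:17835276-17838186), had a log2 signal of 9.7 on all 4 day 18.5 arrays, against 8.4, 8.1, 7.8 and 8.0 in non-pregnant mice. It was 8.4, 8.5, 8.2 and 8.0 in Pdx1-creLate, against 8.0, 7.7, 8.3 and 8.3 in controls, which overlapped. Its effects were 0.20 ± 0.13 for the transgene and 1.62 ± 0.13 for pregnancy, a difference of -1.42 ± 0.19 (adjusted p = 0.000115). Vip, vasoactive intestinal peptide, had 9.3, 8.5, 9.1 and 8.8 at day 18.5, against 7.4, 7.8, 8.1 and 5.9 in non-pregnant mice, and 5.7, 6.1, 6.1 and 5.6 in Pdx1-creLate, against 6.6, 6.2, 5.8 and 5.9 in controls. Non-pregnant replicate 4 was the lowest of the non-pregnant arrays, at the level of the littermates. The effects of -0.25 ± 0.31 and 1.62 ± 0.31 differed by -1.88 (adjusted p = 0.0234). The difference was not called without day 18.5 replicate 1 (adjusted p = 0.0583), and with the array spread as a covariate the pregnancy effect of Vip was 0.57 (adjusted p = 0.694). Tac1, the precursor of the neuropeptide substance P, had effects of -0.35 and 1.35 and a difference of -1.70 (adjusted p = 0.0138). For Tac1, too, non-pregnant replicate 4 was the lowest of its group, at 4.1 against 5.2, 4.9 and 5.7, and lay within the range of the littermates. Both peptides are made by nerve fibres of the pancreas. Of 7 markers of Schwann cells and neurons none was called for pregnancy, beside 5.81% of all genes called higher and 1.36% lower. With the transgene 1 of the 7 fell, beside 5.99% of all genes. The mean log2 signal of these markers was 5.84 at day 18.5, 5.71 in non-pregnant mice, 5.6 in controls and 5.45 in Pdx1-creLate. The part of nerve fibres in the Vip and Tac1 results was not tested.

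Some genes of cell division were called higher at day 18.5. Of 29 mitosis genes 9 rose and 0 fell at day 18.5 (median 0.22), beside 5.81% and 1.36% of all genes, and 0 were called with the transgene (median -0.03). The difference was called in 3, Top2a, Bub1 and Prc1, and without control replicate 4 in 1, since Bub1 (adjusted p = 0.0538) and Prc1 (adjusted p = 0.0504) missed the threshold. Top2a, the topoisomerase of dividing cells, had a log2 signal of 6.2, 6.3, 6.2 and 6.5 at day 18.5, against 5.5, 5.8, 5.7 and 5.4 in non-pregnant mice, and 5.4, 5.4, 5.3 and 5.5 in Pdx1-creLate, against 5.2, 5.8, 5.2 and 5.6 in controls. Only the pregnancy groups were apart, and the effects of -0.05 and 0.70 differed by -0.75 (adjusted p = 0.021). This difference missed the threshold without day 18.5 replicate 4 (adjusted p = 0.0537) and without non-pregnant replicate 4 (adjusted p = 0.0535). The proliferation marker Mki67 rose by 0.52 at day 18.5 and had a transgene effect of -0.12, but its difference was not called (adjusted p = 0.0822), and its pregnancy effect was not called in 4 fits that left out day 18.5 replicate 2 or 4 or non-pregnant replicate 1 or 2. Of 27 genes of DNA replication 2 fell with the transgene, near the 5.99% of all genes, and 5 rose at day 18.5, beside 5.81% of all genes. Rrm2, a ribonucleotide reductase subunit, had effects of -0.12 and 0.65 and a called difference of -0.78 (adjusted p = 0.00762). The mitosis count at day 18.5 was 0 with the array spread as a covariate and 3 without day 18.5 replicate 4.

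Some genes of the secretory pathway were called higher in both comparisons, in different numbers by list, beside 4.02% of all genes with the transgene and 5.81% at day 18.5. Of 29 genes of folding and degradation in the endoplasmic reticulum, 5 rose with the transgene (median 0.10) and 19 at day 18.5 (median 0.35), with 0 falls in either, and of 26 genes of the translocon and COPII export 5 rose with the transgene (median 0.11) and 17 at day 18.5 (median 0.32). The difference was called in 2 of the 29, Derl3 and Sdf2l1, and in 0 of the 26, so for most of these genes a difference between the effects was not shown. Sdf2l1, a co-chaperone, had effects of -0.05 and 0.65, but its level in controls, 10.65, was above that at day 18.5, 10.42. The mean log2 signal of the folding and degradation list was 10.51 in Pdx1-creLate, 10.32 in controls, 10.47 at day 18.5 and 10.05 in non-pregnant mice. For the translocon and COPII list it was 9.87, 9.74, 9.89 and 9.56. In both lists Pdx1-creLate and day 18.5 thus lay close together, while controls lay above non-pregnant mice. The part of these baselines in the counts was not tested. In the PERK-ATF4 arm of the stress response, 14 of 22 genes rose with the transgene (median 0.39) and 10 at day 18.5 (median 0.32), with 7 shared, 0 falls and 0 called differences. The count of 14 became 8 without control replicate 4 and 8 without Pdx1-creLate replicate 2. Nupr1, a stress-induced chromatin protein, rose by 0.85 and 1.12, while Trib3 (0.88 and 0.38) and Chac1 (0.98 and 0.43) were called for the transgene alone. Of 31 genes of oxidative phosphorylation 1 rose with the transgene, near the share of all genes, and 8 at day 18.5. With the array spread as a covariate the day 18.5 counts became 4, 1, 1 and 0 in these 4 lists.

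**Figure D5:**
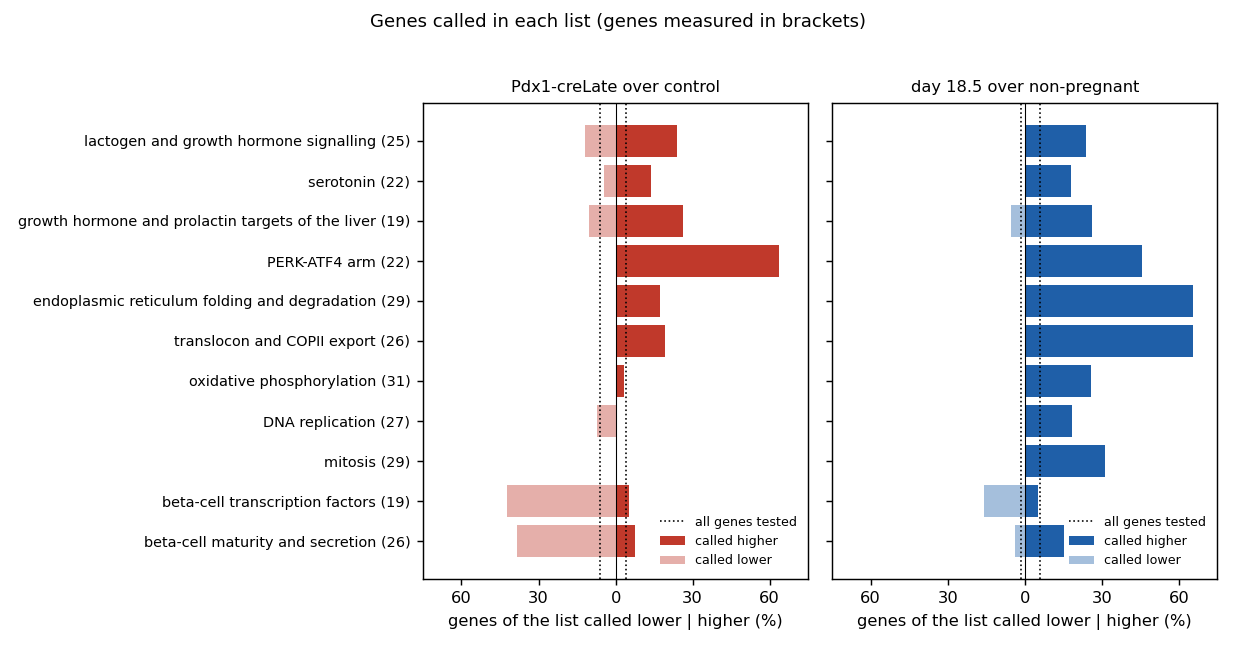
Percentage of the measured genes of 11 lists called higher (right of 0) and lower (left of 0) in Pdx1-creLate over control (left panel) and in day 18.5 over non-pregnant (right panel), with dotted lines at the percentage over all genes tested. The PERK-ATF4 arm has rises in both panels, and the beta-cell lists have their falls mostly in the left panel.

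The 9 opposite genes had small effects. In 8 of them the gene fell with the transgene and rose in pregnancy. Sv2b, a synaptic vesicle protein (chr7:75114894-75309262), had a log2 signal of 5.9, 5.6, 5.9 and 5.6 in Pdx1-creLate, against 6.4, 6.5, 6.7 and 6.6 in controls. At day 18.5 it was 7.7, 7.2, 7.5 and 7.5, against 6.4, 6.7, 6.5 and 6.4 in non-pregnant mice. Controls and non-pregnant mice lay at the same level and the other groups on either side of it, with effects of -0.80 ± 0.11 and 0.98 ± 0.11 and a difference of -1.78 ± 0.15 (adjusted p = 4.79e-07). Plpp1, a lipid phosphatase, had effects of -0.48 and 0.45 (difference -0.93, adjusted p = 0.000234). The others of this direction were Slc18a3, the vesicular acetylcholine transporter, Bex1, Syngr3, Rdh11, Ifi30 and Vdac1, and Slfnl1 was the only gene that rose with the transgene (0.30) and fell in pregnancy (-0.38), the transgene call (adjusted p = 0.0441) being lost in 8 and the pregnancy call (adjusted p = 0.0169) in 3 of the fits that left out 1 array. Without control replicate 4, Slc18a3 and Bex1 were no longer opposite, and 5 of the 9 remained in the class of 7.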

How the data were processed

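The authors measured biotin-labelled total RNA of isolated islets on Affymetrix Mouse Gene 1.0 ST arrays, which have 1 colour. The deposited log2 values were made with RMA in Affymetrix Expression Console, per the submitters' processing notes, a method that subtracts background, quantile-normalizes and summarises probes; the software version, and whether all arrays were normalized in 1 run, are not given in the sources used here. The authors' values lie between 1.7 and 14.5 and carry 1 decimal, none is missing, and dim genes were kept. Signal over background and the number of arrays limit the precision; no read depth applies.

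Of 35556 probe sets, 21789 had 1 gene symbol, 1621 several and 12146 none. Each symbol was represented by its probe set of highest average signal on the 39 arrays, which left 19938 genes, 999 of them with a choice. Positions are those of RefSeq for GRCm38.p6, matched by Entrez identifier for 19856 genes.

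Means of 4 groups on 16 arrays were fitted by lmFit and eBayes of limma 3.58.1 (R 4.3.3), and the transgene effect, the late-pregnancy effect and their difference had two-sided p-values, adjusted across all genes by Benjamini-Hochberg, with a threshold of 0.05. Intervals are 95% confidence intervals of this fit, SE its standard error, and n is 4 per group. Replicates are biological replicates per the labels; whether they are separate animals or pools is not stated there. The procedure was tested on simulated data with 200 changed genes. Tables and figures used Python 3.11.15 with numpy 2.4.6, pandas 2.3.3 and matplotlib 3.10.9.

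The members, the gene lists (632 genes, 576 measured) and the rule for named genes were chosen with earlier results of these data known. The rule took, by size, 10 rises and 5 falls among shared genes without a called difference, 6 genes each way among those with one, 10 each way of the transgene-only and pregnancy-only genes and 5 each way of the opposite genes, up to 4 called and up to 4 shared members of each list, and a short set of lactogenic, serotonin and beta-cell genes whatever their result; the text leaves some out. Rdh11, Ifi30 and Vdac1 complete the opposite class and were named after their values had been seen. Genes without a probe set of their own symbol, such as Prlr and Ins1, are not analysed here.

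The fit was repeated with the array SD or the acinar marker mean as a covariate, with replicate numbers as a block, with array weights, and with a trended and robust variance. It was also repeated on all 39 arrays, on the 8 arrays of each effect, after a second quantile normalization, after centring by array median, with a gene's probe sets averaged, without the dimmest 25% of genes, at a log2 difference of at least 1, and without each array in turn.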

Additional observations from a re-analysis of the deposited data

Results flagged for a closer look

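In 6 groups of 4 arrays, 1 array lay far from the other 3, by Dixon's test on 72 groups of the genes with array values above whose range was at least 0.5. Chance alone gives about 1 such array in 20 groups that were not chosen by their values. These groups were kept by their range, so that rate need not hold for them. Of the 6, 5 were control replicate 4 and concern genes higher in Pdx1-creLate. Cldn8 had a log2 signal of 7.9 on this array, against 5.1 to 5.3 on the other controls, and Tph1 had 7.3, against 4.5 to 4.6. Fbxw24 had 4.8, against 3.6 to 3.8, Tmem47 had 6.4, against 5.2 to 5.4, and Csf2rb had 5.6, against 5.0 to 5.1. The remaining one was control replicate 1 for Tac1, at 4.9, against 4.2 to 4.3 on the other controls.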

How the results depend on the processing

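No effect or difference of a named gene that was called changed its sign under any alternative run. The array SD as a covariate moved the counts to 189 genes for pregnancy, 134 for the difference, 166 shared, 105 transgene-only, 4 pregnancy-only and 1 opposite. The array SD separates day 18.5 from non-pregnant arrays, so the covariate and pregnancy cannot be told apart. Leaving out 1 array gave 740 to 1650 genes for pregnancy, 328 to 630 for the difference, 33 to 167 pregnancy-only and 3 to 15 opposite genes, the lowest pregnancy counts without day 18.5 replicates 1, 3 or 4 or non-pregnant replicate 4; the shared genes ranged from 371 to 494 and the transgene-only genes from 221 to 361. All 39 arrays in 1 fit gave 1109 genes for the difference, 563 transgene-only, 290 pregnancy-only and 25 opposite. Trended and robust variance gave 859 for the difference, 221 pregnancy-only and 20 opposite. Array weights gave 2582 for pregnancy, 172 pregnancy-only and 16 opposite. Without the dimmest 25% of genes 183 were pregnancy-only and 18 opposite, and with quantile normalization again 56 and 5. The transgene effect on its own 8 arrays was called in 1313 genes. At a log2 difference of at least 1 the counts were 199 for the transgene, 83 for pregnancy, 85 for the difference, 61 shared, 60 transgene-only, 4 pregnancy-only and 0 opposite. The stricter fold keeps only a part of the called genes by construction. For the other settings, the covariate and the scalings included, the cause of the change was not tested. Values with 1 decimal and a signal near background limit what can be seen of dim genes and of small effects.

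Groups carry the same replicate numbers, and no clear sign was seen that these pair the samples, though the correlations cannot exclude a pairing. Deviations of same-numbered arrays correlated at 0.061, 0.031, -0.017 and 0.158 between Pdx1-creLate and control and at 0.041, -0.056, -0.049 and -0.235 between day 18.5 and non-pregnant. Differently numbered arrays correlated at -0.112 to 0.122 in the first comparison, below the 0.158 of replicates 4, and at -0.188 to 0.334 in the second. With the replicate block 61 genes were pregnancy-only, 4 opposite, 415 shared, 259 transgene-only and 406 called for the difference.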

Other observations

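Other lists held shared and unshared members side by side. Of 19 measured genes that growth hormone or prolactin control in liver, 5 were called higher and 2 lower with the transgene, and 5 higher and 1 lower at day 18.5, beside 4.02% and 5.99% of all genes with the transgene and 5.81% and 1.36% at day 18.5. The transcription factor Cux2 (0.65 and 0.60), Igfals (0.95 and 0.98) and Fmo1 (4.10 and 1.5) were higher in both, Tat was lower in both (-1.88 and -0.90), and Ugt2b34 was called for the transgene alone (-2.62 and -0.33). The other rises were Cish and Socs2, which like Igfals were already counted in the list of lactogen and growth hormone signalling. Among 22 claudins and tight-junction genes, Cldn8 was the largest rise in both comparisons, while Cldn4 fell by 1.15 and Cldn1 rose by 0.73 with the transgene, with effects of -0.12 and -0.10 in pregnancy and called differences (adjusted p = 0.00135 for Cldn4 and adjusted p = 0.0134 for Cldn1). Of 18 genes of branched-chain amino acid breakdown, Ivd was shared and Bcat1, the cytosolic transaminase, was transgene-only (1.32 and 0.08). Among 24 immediate-early genes, Jun (0.65 and 0.68) and Jund (0.30 and 0.35) rose and Dusp1 (-0.42 and -0.50) and Klf2 (-0.35 and -0.35) fell in both comparisons, and the clock gene Per1 fell in both as well (-0.50 and -0.60). The transgene effect of Dusp1 was -0.38 without control replicate 4 and was not called (adjusted p = 0.126).

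Of the transgene-only genes, Cftr, Tmem47 and Ucn3 are given over all pregnancy days; days before 18.5 entered none of the effects. From day 3.5 to day 18.5 the day means of Cftr lay between 3.75 and 4.03, against 3.82 in non-pregnant mice, while its mean in Pdx1-creLate was 7.45. Day means of Tmem47 lay between 5.32 and 5.53 (non-pregnant 5.42, Pdx1-creLate 8.35) and those of Ucn3 between 10.6 and 10.78 (non-pregnant 10.7, Pdx1-creLate 10.1). Other genes of the class moved more over the days, such as Gbp4, at 6.62 on day 9.5 against 6.05 in non-pregnant mice, with 7.88 in Pdx1-creLate. For the shared gene Rerg no day mean reached the Pdx1-creLate mean of 9.35, the highest being 6.58 at day 18.5. The opposite gene Sv2b lay between 6.40 and 6.53 on days 3.5 to 12.5, at 6.75 on day 15.5 and at 7.48 on day 18.5. Day means share the non-pregnant arrays as their baseline and were not tested here.

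Reg2, a regenerating-family gene of the pancreas, had the widest estimated difference between the effects among the genes in no class. Its effects were -0.73 ± 0.48 for the transgene and 1.58 ± 0.48 for pregnancy, a difference of -2.30, and neither the effects nor the difference were called (adjusted p = 0.0721 for the difference).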
